A study of Mus musculus with 2 samples.

Results

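Shh, Ptch1, Smo, Gli1, Gli2, Gli3 and Hhip, 7 core genes of the Hedgehog signalling pathway, are described here among the 32285 genes counted in the esophageal epithelium of C57BL/6 mouse embryos. The genes were taken by name and all 7 were found in the count tables. Esophagi were collected at E18.5, late in gestation, from littermates, freed of most of their muscle by hand, digested and sequenced cell by cell, with 1 library per genotype. The library labelled p63-KO carried the p63-CreER allele on both chromosomes (genotype p63-CreER/p63-CreER). The library labelled wild type is given the genotype p63-CreER, so its embryos carried the allele as well. Which part of Trp63, the gene of p63, this allele interrupts is not stated. Each library held cells with Xist RNA only and cells with Y-linked RNA only, so each pooled male and female embryos in a number that is not stated. With 1 library per genotype there was no test between genotypes, and every interval below covers counting error only.

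Hedgehog ligands are secreted proteins. In cells that receive no ligand, Ptch1, the receptor, holds Smo, a membrane protein that passes the signal on, inactive. When Shh binds Ptch1, Smo becomes active at the primary cilium and the Gli transcription factors switch target genes on, with Gli2 acting mainly as an activator and Gli3 mainly as a repressor. Gli1, Ptch1 and Hhip, a surface protein that binds and sequesters the ligand, are themselves classical target genes. In the developing foregut, Shh is known as a ligand made by the epithelium and read by the mesenchyme around it.

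After filtering, 5519 wild-type and 2375 p63-KO cells remained, with medians of 10920 and 19402 unique molecular identifiers (UMIs, counted transcripts) per cell. Epithelial-like cells numbered 5370 (97.3%) in the wild-type and 1685 (70.9%) in the p63-KO library, with medians of 11047 and 25354 UMIs. Fibroblast-like cells numbered 10 and 509 and smooth muscle- or pericyte-like cells 0 and 74, so stroma could be described in the p63-KO library only. The layers were separated by hand, which can set these shares. Trp63 stood at 302.8 CPM in wild-type and 118 CPM in p63-KO epithelial-like cells, where CPM is counts per 1e+06 UMIs of the summed cells. The basal keratin Krt5 stood at 766 CPM and 0.235 CPM. The kit reads 3′ ends, so the Trp63 value is no check of the genotype. Of the epithelial marker list, 10 of 10 and 9 of 10 genes were found in at least 25% of these cells. The same list named the cells, so this is no separate check of the labelled tissue. Epithelial cells of the libraries lay almost wholly in separate joint clusters, with wild-type cells in clusters 1, 2, 4, 5, 6, 7, 8, 10 and 11 (with 4 p63-KO cells in cluster 11) and p63-KO cells in clusters 3, 12, 13, 14, 15 and 16 (with 2 wild-type cells in cluster 13 and 1 in cluster 14). The ciliated-like cluster 17 held 33 wild-type and 57 p63-KO cells. Among the kept cells, 5 barcodes occurred in both libraries.

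In the wild-type epithelium, Shh, Ptch1, Gli2 and Gli3 were higher in the basal-like cells than in the layers above. Shh stood at 39 CPM (36 to 42.3, 95% Poisson interval) in the 1692 basal-like cells and at 2.47 CPM (1.88 to 3.18) in the 1345 suprabasal- and superficial-like cells. The receptor Ptch1 stood at 92.6 and 29.6 CPM, and Smo at 101.1 and 55.1 CPM. Gli3 stood at 98.7 and 3.85 CPM and Gli2 at 11.7 and 0.209 CPM. Shh, Ptch1, Gli2 and Gli3 were thus 15.8-fold (12.1 to 21.0), 3.12-fold (2.85 to 3.42), 55.9-fold (23.5 to 174.3) and 25.6-fold (20.8 to 32.0) higher in basal-like cells. With cells split by Krt14 and Krt5 against Krt13 and Krt4 UMIs in place of clusters, the log2 ratios, with 1 CPM added to each side, were 1.46 in place of 3.53 for Shh, 1.70 in place of 3.39 for Gli2 and 1.54 in place of 4.36 for Gli3, and all 3 stayed called. Smo was 1.83-fold higher (1.70 to 1.97), short of the 2-fold at which a difference was called. A gene was measured in a comparison when it reached 5 CPM on at least 1 side, and the called genes were 4 of the 5 measured members, beside 21.3% of all 11017 measured genes in that direction. The members' median log2 ratio, with 1 CPM added to each side, was 3.39, and that of all measured genes 0.36. Gli1 stayed under 5 CPM, with 52 UMIs (3.36 CPM) in basal-like and 4 UMIs (0.167 CPM) in the upper cells. Hhip was nearly uncounted, with 2 UMIs in basal-like cells and 0 in the upper cells, which allows up to 0.125 CPM there (3 counts).

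Across the wild-type subclusters, the ligand ranged widely, without a strict order by layer. Shh stood at 50.9 CPM in basal-like subcluster 1 (1242 cells), at 31.5 to 38.8 CPM in the 3 cycling subclusters and at 18.7 CPM in subcluster 5. That subcluster of 463 cells, led by Notch1, Megf11 and Kcne3, met no layer's markers and stayed unnamed. Suprabasal-like subclusters 3 and 9 held 2.87 and 4.37 CPM, whose intervals overlap, and superficial-like subcluster 8 held 0.681 CPM (0.25 to 1.48). Basal-like subcluster 6 held 7.76 CPM, below subcluster 5, and ciliated-like subcluster 10 (63 cells) held 15.8 CPM (10.6 to 22.5). Gli3 also fell from 88.9 CPM in basal-like subcluster 1 through 19.1 CPM in subcluster 5 to 2.50 CPM in the superficial-like cells, but its highest groups differed from those of Shh. Gli3 was highest in cycling subclusters 2 and 4, at 145 CPM (137.6 to 152.8) and 150 CPM (141.8 to 158.5), which do not differ beyond counting error. Ptch1 ranged from 118 CPM in cycling subcluster 4 to 21.7 CPM in the superficial-like cells. Smo varied least, from 127.3 CPM in cycling subcluster 7 to 52.6 CPM in suprabasal-like subcluster 9. Gli1 reached 5 CPM only in cycling subcluster 4, a group of 549 cells led by Top2a and other mitotic genes, with 59 UMIs (7.01 CPM, 5.34 to 9.05).

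**Figure D1:**
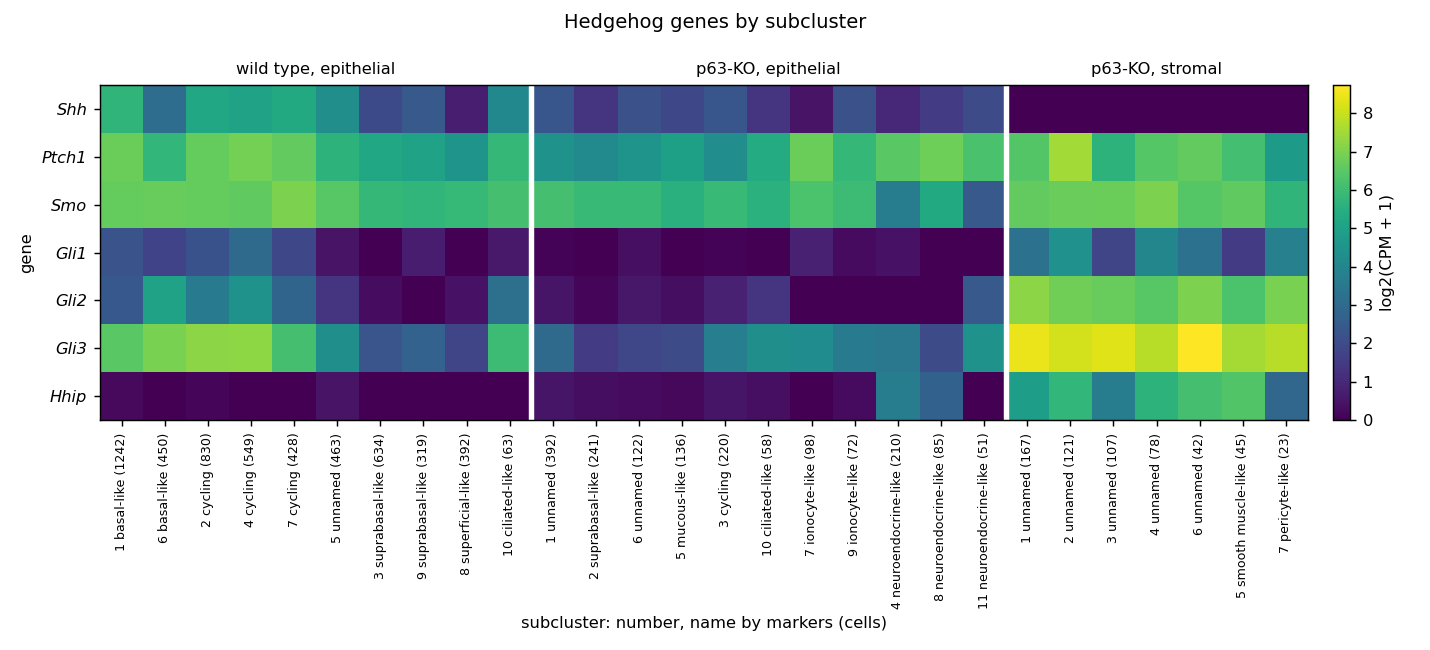
Level of the 7 genes (rows) as log2(CPM + 1), by colour, in each epithelial and stromal subcluster (columns, with the number of cells). Shh is brightest in wild-type basal-like subcluster 1 and the 3 cycling columns (31.5 to 50.9 CPM) and dark in all 7 p63-KO stromal columns, where Gli2 and Gli3 are bright.

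The basal compartment itself was split by ligand and effector. Basal-like subcluster 6 (450 cells, led by Zbtb16, Tnfrsf19 and Edaradd) held Shh at 7.76 CPM (5.34 to 10.9) and Gli2 at 31.3 CPM (26.2 to 37.0), while subcluster 1 held Shh at 50.9 CPM and Gli2 at 4.28 CPM. Shh was therefore 6.56-fold lower and Gli2 7.31-fold higher (5.22 to 10.4) in subcluster 6. Ptch1 was 2.0-fold lower, at 53.6 against 107.4 CPM. Gli3 was 1.40-fold higher and Smo stood level, at 101.5 and 100.9 CPM. Members called were 1 of 5 measured in the upward direction and 2 of 5 downward, where 2.18% and 1.45% of all 10710 measured genes were. Gas1, a co-receptor for the ligand, moved with Gli2, at 10.8 CPM in subcluster 6 against 0.356 CPM in subcluster 1. The Wnt antagonist Sfrp1 did so too, at 55 against 3.92 CPM, and no other of the 35 measured pathway genes outside the 7 was called in either direction. The makeup of these subclusters by embryo differed: of cells with either Xist or Y-linked RNA only, 4.46% were Y-only in subcluster 6 and 36.4% in subcluster 1. Within Xist-only cells Shh stood at 7.89 against 48.3 CPM and Gli2 at 33.4 against 2.56 CPM, 6.12-fold lower and 13.0-fold higher in subcluster 6. Ptch1 was 1.71-fold lower in those cells, and within subcluster 1 it stood at 87.8 CPM in Xist-only and 137.8 CPM in Y-only cells. Gli2 differed there too, at 2.56 CPM in Xist-only and 6.74 CPM in Y-only cells. Within Y-only cells Gli2 was 2.45-fold higher in subcluster 6, from 3 UMIs in 19 cells.

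Within single basal cells, Ptch1 was found at a higher share among cells with Shh, though the intervals touch. Each cell was thinned to 2000 UMIs so that depth could not set the share. In subcluster 1 a Ptch1 UMI was found in 29 of 111 cells with a Shh UMI, 26.1% (18.2 to 35.3, Clopper-Pearson), and in 188 of 1094 cells without, 17.2% (14.99 to 19.6). At full depth the shares were 57.4% and 47.4%. Gli3 went the other way after thinning, at 9.91% (5.05 to 17.0) of cells with and 17.0% (14.8 to 19.4) of cells without Shh, but at 49.8% and 45.7% at full depth. The intervals of both pairs overlap after thinning, and cells of 1 library are no replicates. Gli2 was found in 0 of the 111 cells with Shh and in 7 of the 1094 without.

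In p63-KO epithelial-like cells, the ligand and the Gli genes stood far below the wild-type level. Wild-type cells held Shh at 22.6 CPM (21.5 to 23.8) and p63-KO cells at 3.08 CPM (2.69 to 3.51), 7.35-fold lower (6.39 to 8.50). Gli3 stood at 69.9 and 7.90 CPM, 8.84-fold lower (8.11 to 9.66), and Gli2 at 7.58 and 0.456 CPM, 16.6-fold lower (11.7 to 24.4). Ptch1 stood at 71.0 and 32.7 CPM, 2.17-fold lower (2.07 to 2.28). Smo stood at 83.8 and 56.7 CPM, 1.48-fold lower (1.42 to 1.54) and not called. Members at least 2-fold lower were thus 4 of the 5 measured and none was higher. Of all 11775 measured genes, 8.76% were lower by that much and 15% higher. The members' median log2 ratio was -2.54, and that of all measured genes -0.025. Gli1 fell outside the measured range with 164 wild-type UMIs (2.39 CPM) and 9 p63-KO UMIs (0.124 CPM), a ratio of 19.2 (9.89 to 42.8). Hhip was outside it as well and went the opposite way, with 5 UMIs (0.0729 CPM) and 64 UMIs (0.884 CPM).

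Shares of cells showed the same order for Shh and the Gli genes. After thinning to 2000 UMIs, Shh was found in 261 of 5283 wild-type cells, 4.94% (4.37 to 5.56), and in 8 of 1662 p63-KO cells, 0.481% (0.208 to 0.946). At full depth these shares were 20.9% and 10.98%. Stromal cells, which should lack the gene, held it after thinning in 0 of 581 cells, which allows a share of up to 0.516%, and the thinned p63-KO share lies under that limit. At full depth they held it in 0 of 583 cells, which allows up to 0.515%. For Gli3 the thinned shares were 13.6% and 1.62%, for Gli2 1.38% and 0 of 1662 cells, and for Ptch1 13.8% and 8.42%. For Smo they were 15.4% and 9.33%. At full depth the order was the opposite for Ptch1, at 47.7% and 56.7%, and for Smo, at 59.4% and 66.4%, with more UMIs per cell in p63-KO.

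Cell makeup also differed between the libraries. Cycling subclusters held 1807 wild-type and 220 p63-KO cells, and without them the called members were 2 of 4 measured, Shh (6.04-fold lower) and Gli3 (5.85-fold lower), where 7.43% of all genes were. Ptch1 was then 1.48-fold lower, at 36.4 against 53.8 CPM. Gli2 was then under the 5 CPM minimum, at 0.384 against 4.52 CPM. The call on Ptch1 was also lost in Xist-only cells, at 34.2 against 59.7 CPM (1.75-fold lower), and kept in Y-only cells, at 38.9 against 94.4 CPM (2.43-fold lower). Its log2 ratio, -1.09 over all epithelial-like cells, was -1.72 without the ciliated-, neuroendocrine- and ionocyte-like subclusters, -0.88 when every cell weighed equally, -0.82 after thinning and -0.34 in cells gated on Epcam or Cdh1 with no Col1a1, Col3a1 or Pecam1 UMI. Shh and Gli3 were called lower in every alternative run, and Gli2 in all but the one without cycling cells and the one with a minimum of 20 CPM. Fibroblast marker RNA, summed over 10 genes, came to 50.2 CPM over wild-type and 570.5 CPM over p63-KO epithelial-like cells, with none of the 10 genes at 0 in either. Of the p63-KO sum, Col3a1 made up 67.6 CPM, Col1a1 39.1 CPM and Col1a2 28.4 CPM. Most of it thus lay in other genes of the list, and the sum alone is no measure of carried stromal RNA.

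Set against the wild-type layers one by one, the pooled p63-KO epithelium lay nearer the upper than the basal-like cells for the measured members. No p63-KO subcluster met the markers of basal cells. That list holds Trp63 itself and Krt5, which was nearly uncounted in p63-KO cells, so this naming does not tell which layer they resemble. Against wild-type suprabasal- and superficial-like cells, Shh was 1.25-fold higher (0.933 to 1.69), Ptch1 1.10-fold (1.01 to 1.20) and Smo 1.03-fold (0.967 to 1.10). Gli3 was 2.05-fold higher (1.65 to 2.59), at 7.90 against 3.85 CPM, and was the 1 called of 3 measured members, beside 23.3% of all measured genes. Against wild-type basal-like cells, Shh was 12.7-fold, Gli2 25.7-fold, Gli3 12.5-fold and Ptch1 2.83-fold lower, and Smo 1.78-fold. Those 4 of 5 measured members stood beside 10.7% of all measured genes. Both comparisons use the same p63-KO cells, which pool unlike types. Ptch1 stood at 81.9 CPM in their neuroendocrine- and ionocyte-like cells and at 22.0 CPM in the others, so neither held the pooled 32.7 CPM. Of 30 measured pathway genes outside the members, 11 were called higher than in the upper layers and 3 lower. Over all measured genes these shares were 23.3% and 7.31%. Against basal-like cells, 1 of 34 such genes was called higher and 10 lower, beside 19.6% and 10.7% of all measured genes. The nearness to the upper layers is therefore stated for the measured members only.

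**Figure D2:**
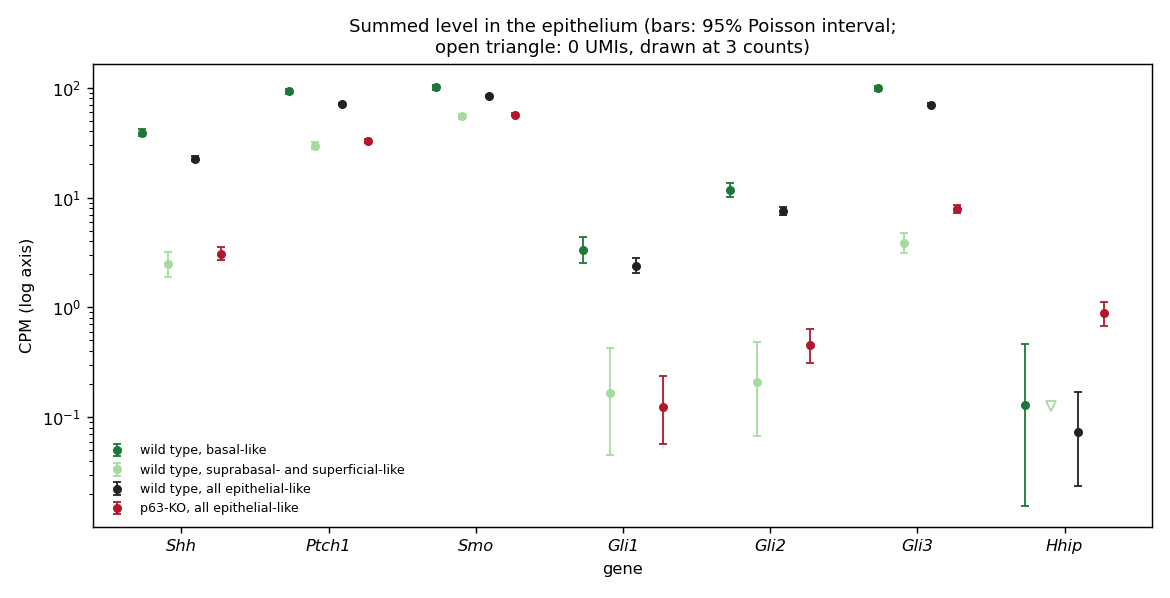
Summed level of each gene in CPM (log axis) in wild-type basal-like, wild-type suprabasal- and superficial-like, all wild-type and all p63-KO epithelial-like cells. Points carry 95% Poisson intervals, and the open triangle marks 0 UMIs drawn at 3 counts. For Shh, Ptch1 and Smo the p63-KO point (3.08, 32.7 and 56.7 CPM) lies close to the upper wild-type layers (2.47, 29.6 and 55.1 CPM).

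Inside the p63-KO epithelium, Ptch1 was high in the neuroendocrine-like and ionocyte-like cells although Shh was not. The 3 neuroendocrine-like subclusters, cells with secretory granules and neuronal genes, held Ptch1 at 89.7 CPM in subcluster 4, 111.1 CPM in subcluster 8 and 72.9 CPM in subcluster 11. Ionocyte-like subclusters 7 and 9 held 108 and 54.6 CPM. Their leading genes included Stap1 and Foxi1, the transcription factor of ion-transporting cells. The remaining 6 epithelial subclusters held 16.7 to 39.9 CPM, lowest in the Krt13-high subcluster 2 and highest in the ciliated-like subcluster 10. Together, the neuroendocrine- and ionocyte-like cells (516 cells) stood at 81.9 CPM and the other p63-KO epithelial cells at 22.0 CPM, 3.72-fold higher (3.43 to 4.04). Ptch1 was the 1 called of 3 measured members, beside 15.5% of all 12034 measured genes. None of the 3 was called lower, beside 5.73% of all. Like the comparisons between subclusters, this pooling was outside the planned comparisons, so its fold is a description. Shh in these groups was 2.02 and 3.31 CPM and Gli3 11.7 and 7.07 CPM. After thinning, Ptch1 was found in 16.3% of neuroendocrine- or ionocyte-like cells and 4.95% of the others. Gli1 had 4 UMIs in those 516 cells.

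Smo was lower in the neuroendocrine-like than in the ionocyte-like subclusters, and Hhip was counted mainly in neuroendocrine-like subclusters 4 and 8. Smo stood at 11.5 CPM in neuroendocrine-like subcluster 4, 38.7 CPM in subcluster 8 and 4.46 CPM (3 UMIs) in subcluster 11, against 75.1 and 61.8 CPM in the ionocyte-like subclusters and 45.2 to 69.8 CPM in the other 6. Hhip stood at 11.9 CPM (8.32 to 16.4) in subcluster 4, from 36 UMIs in 8.57% of its cells. In subcluster 8 it stood at 5.52 CPM from 9 UMIs, and in subcluster 11 it had 0 UMIs. The other 8 epithelial subclusters held at most 6 Hhip UMIs each, no more than 0.402 CPM. Gli2 had 3 UMIs in the 346 neuroendocrine-like cells and 0 in the 170 ionocyte-like cells. The Gli3 level in ionocyte-like subcluster 7, 18.1 CPM, rested on 48 UMIs, 21 of them in 1 cell. Shh in the p63-KO subclusters ranged from 0.377 CPM in ionocyte-like subcluster 7 to 4.09 CPM in cycling subcluster 3, and most of these intervals overlap.

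**Figure D3:**
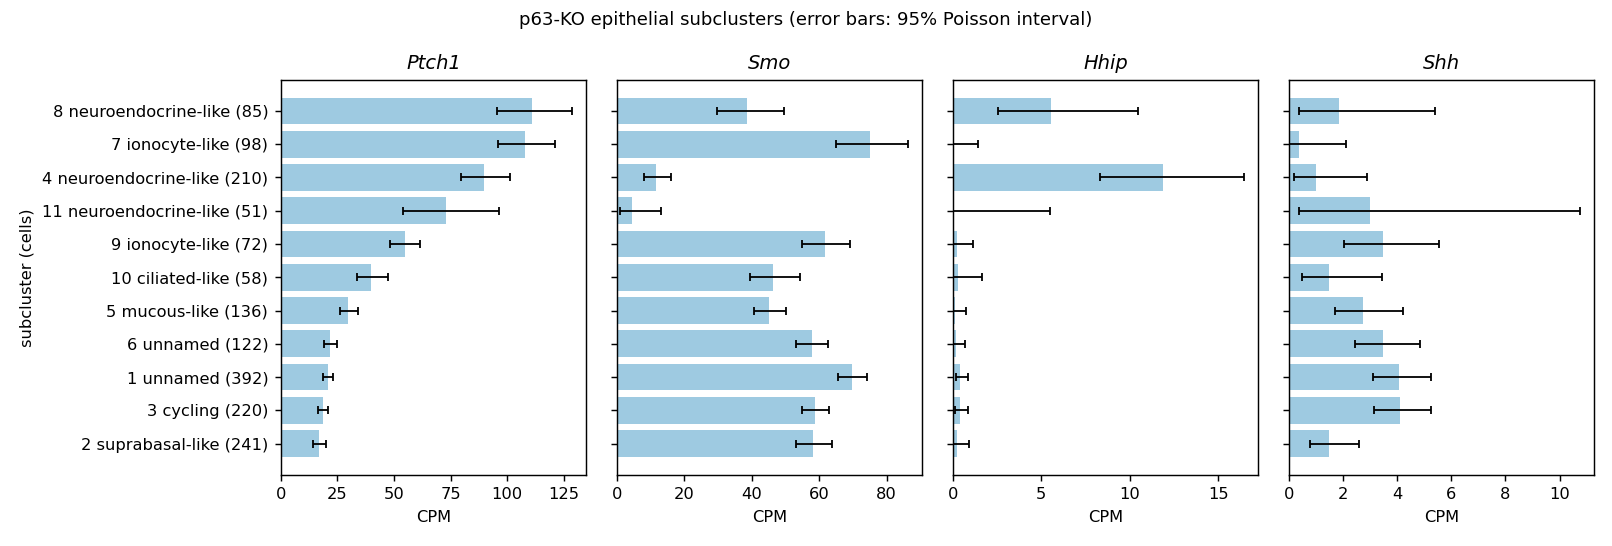
Level in CPM (bars, linear axis from 0) of Ptch1, Smo, Hhip and Shh in the 11 p63-KO epithelial subclusters, with 95% Poisson intervals and the number of cells. Ptch1 is longest in the neuroendocrine- and ionocyte-like rows (54.6 to 111.1 CPM), while Smo is shortest in the neuroendocrine-like rows (4.46 to 38.7 CPM).

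In the p63-KO stroma, the receiving side of the pathway was higher than in the epithelial-like cells of that library, and the ligand was not counted. Shh had 0 UMIs in 583 stromal cells, which allows up to 0.417 CPM (3 counts), against 3.08 CPM in the epithelial-like cells of the same library. Gli2 stood at 113.8 CPM in stromal and 0.456 CPM in epithelial-like cells, 249.6-fold higher (176.3 to 365.1). Gli3 stood at 294.5 and 7.90 CPM, 37.3-fold higher (34.0 to 41.0). Hhip stood at 43.1 and 0.884 CPM, 48.7-fold higher (37.1 to 64.8), and Gli1 at 9.72 CPM (70 UMIs) and 0.124 CPM (9 UMIs), 78.2-fold higher (38.9 to 178.1). Ptch1 stood at 93.4 and 32.7 CPM, 2.86-fold higher (2.62 to 3.11), and Smo at 100.4 and 56.7 CPM, 1.77-fold higher (1.63 to 1.92). These stromal levels of Ptch1 and Smo were no higher than in epithelium generally, since wild-type basal-like cells held 92.6 and 101.1 CPM. At least 2-fold higher were 5 of the 6 measured members, where 20.7% of all 12704 measured genes were. The members' median log2 ratio was 3.90, and that of all measured genes 0.038.

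Part of the low epithelial counts lay at the level of stromal RNA found outside stromal cells. Stromal genes such as Col1a1, Col3a1, Pdgfra and Foxf1 stood in p63-KO epithelial-like cells at 0.291% to 0.567% of their stromal level. Gli2 stood at 0.401%, inside that range, while Gli1 stood at 1.28%, Hhip at 2.05%, Gli3 at 2.68%, Ptch1 at 35.0% and Smo at 56.5%. In the other direction, Epcam and Krt15 stood in stromal cells at 1.82% and 1.44% of their epithelial level. In the wild-type epithelium Foxf1 had 2 UMIs in all, against 520 UMIs of Gli2. Red cell marker RNA, summed over 7 genes, also differed, at 2104 CPM in stromal cells (Slc4a1 at 0) and 73.7 CPM in epithelial-like cells, and its part in the result was not tested. Of stromal cells with Xist or Y-linked RNA only, 536 were Xist-only and 24 Y-only. Within Xist-only cells all 5 genes stayed at least 2-fold higher, and Ptch1 was 2.80-fold higher. Within the 24 Y-only cells Gli2, Gli3 and Hhip did, while Ptch1 was 1.79-fold higher at 69.7 against 38.9 CPM and Gli1 had 1 UMI.

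**Figure D4:**
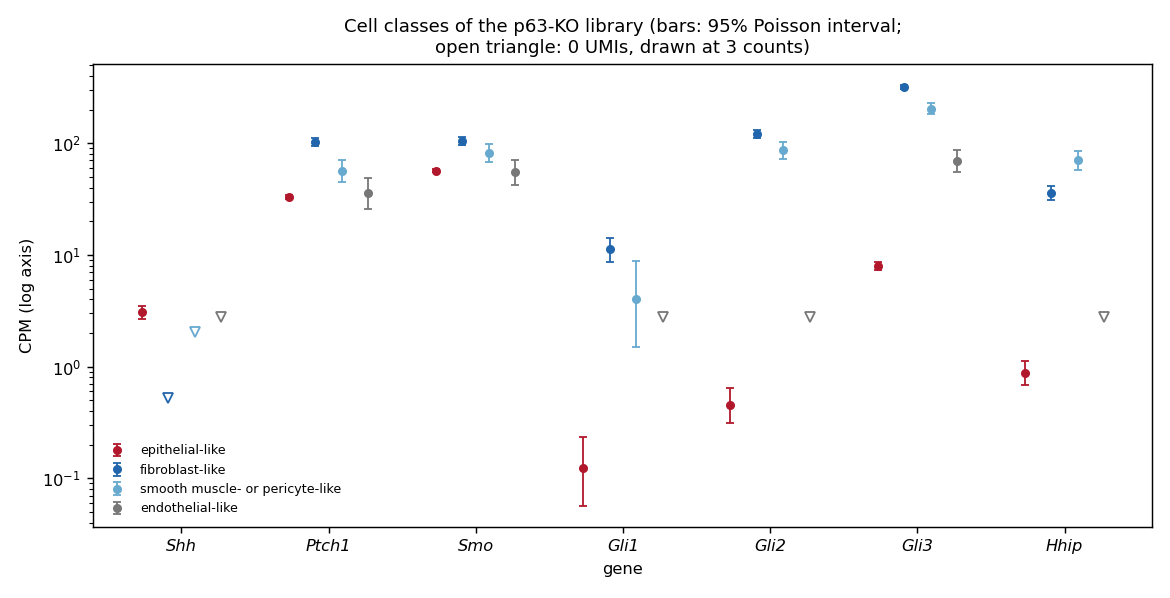
Summed level of each gene in CPM (log axis) in epithelial-like, fibroblast-like, smooth muscle- or pericyte-like and endothelial-like cells of the p63-KO library, with 95% Poisson intervals. Open triangles mark 0 UMIs drawn at 3 counts. Shh has a point in the epithelial-like class alone, and Gli2 (120.8 and 86.9 against 0.456 CPM) lies far higher in both stromal classes.

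Across the other classes of the p63-KO library, the 7 genes split by cell type. Fibroblast-like cells held Ptch1 at 102.9 CPM, Gli1 at 11.2 CPM, Gli2 at 120.8 CPM, Gli3 at 318 CPM and Hhip at 35.9 CPM. Smooth muscle- or pericyte-like cells held Ptch1 at 56.6 CPM, Gli2 at 86.9 CPM and Gli3 at 204.1 CPM, all lower, and Hhip at 70.7 CPM (57.9 to 85.6), higher than in fibroblast-like cells. Endothelial-like cells, the lining of vessels, held Gli3 at 69.9 CPM, Smo at 55.2 CPM and Ptch1 at 35.9 CPM, and 0 UMIs of Gli1, Gli2 and Hhip in 70 cells. The 20 immune-like cells held 17 UMIs of Smo, 5 of Gli3, 3 of Ptch1 and 1 of Gli2. The 10 wild-type fibroblast-like cells are too few for a comparison, and held 11 UMIs of Smo, 8 of Gli3, 6 of Ptch1, 3 of Gli2, 1 each of Gli1 and Hhip, and 0 of Shh.

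Among the stromal subclusters, 2 and 3 differed in the target genes, while their Gli2, Gli3 and Smo levels had overlapping intervals. Both stayed unnamed by markers, as did subclusters 1, 4 and 6, and fibroblast-like is the name of a joint class. Subcluster 2 (121 cells, led by Gabrg3, Frem1 and Grm7) held Ptch1 at 182 CPM (160.2 to 206), above every other stromal subcluster, and subcluster 3 (107 cells, led by Fndc1, Sgcz and Sema3d) at 48.5 CPM (36.7 to 62.8). Gli1 stood at 20.4 CPM (28 UMIs) and 2.55 CPM (3 UMIs), and Hhip at 53.9 and 11.9 CPM. Ptch1 was thus 3.75-fold (2.81 to 5.10), Gli1 7.99-fold (2.47 to 41.1) and Hhip 4.53-fold (2.53 to 8.68) higher in subcluster 2. Gli2 was 1.10-fold higher (0.865 to 1.41), Smo 0.984-fold (0.771 to 1.26) and Gli3 0.905-fold (0.783 to 1.05). The called members were 3 of 6 measured, beside 10.7% of all 11467 measured genes, and none was called lower, beside 5.01%. These 2 subclusters were singled out after their values were seen. Of 43 measured pathway genes outside the 7, 4 were called higher (Foxl1, a winged-helix factor of gut mesenchyme, Hhat, Ccnd1 and Tbx18) and 4 lower (Disp1, Scube2, Scube3 and Osr1), beside the same 10.7% and 5.01% of all measured genes.

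In the other stromal subclusters, Ptch1 stood at 83.5 CPM in subcluster 1, 84.3 CPM in subcluster 4 and 98.8 CPM in the cycling-gene subcluster 6, whose intervals overlap. It stood at 67.8 CPM in smooth muscle-like subcluster 5 and 25.7 CPM in pericyte-like subcluster 7, from 8 UMIs. Gli1 stood at 8.51, 15.2 and 8.72 CPM in subclusters 1, 4 and 6. Gli3 was highest in subcluster 6, at 421.4 CPM (374.3 to 472.8), stood at 349.6 CPM in subcluster 1 and 218.3 CPM (185.6 to 255.1) in subcluster 4, and was lowest in the smooth muscle-like cells, at 186.2 CPM (161 to 214.2). Hhip was highest in the smooth muscle-like cells, at 81.2 CPM (64.8 to 100.4), 2.26-fold above the fibroblast-like cells (1.74 to 2.93). Gli1 stood at 1.91 CPM (2 UMIs) in the smooth muscle-like cells, 5.86-fold below the fibroblast-like cells. Hhip was 1 called of 6 measured members in the upward direction, where 13.8% of all measured genes were, and Gli1 1 of 6 in the downward direction, where 18.4% were. Hhip stood at 6.43 CPM (2 UMIs) in the pericyte-like cells. In single fibroblast-like cells, Ptch1 was found in 38 of 49 cells with a Gli1 UMI, 77.6% (63.4 to 88.2), and in 49.3% (44.7 to 54.0) of 460 without, with median depths of 12179 and 10685 UMIs. After thinning only 10 cells kept a Gli1 UMI, 3 of them with Ptch1, against 16.1% of the rest.

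**Figure D5:**
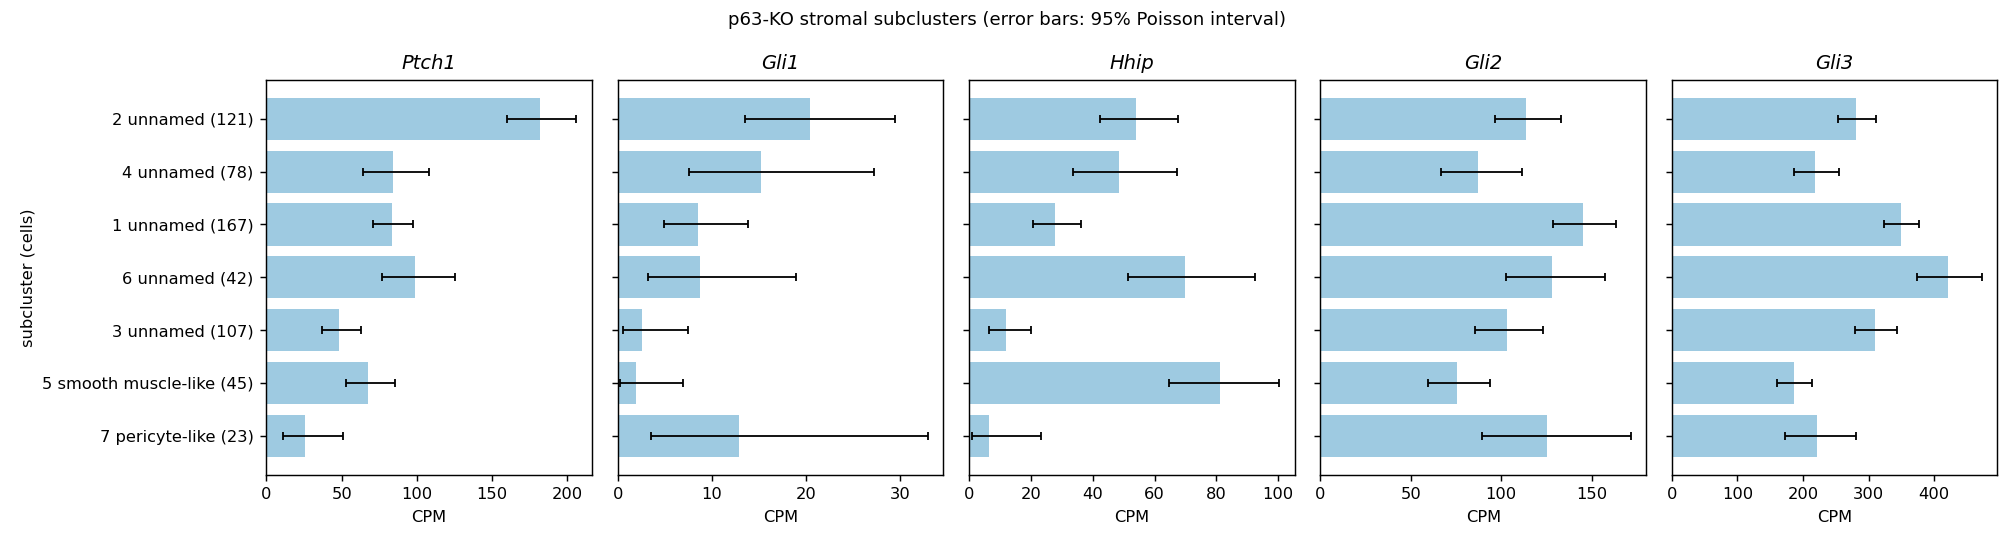
Level in CPM (bars, linear axis from 0, a scale for each gene) of Ptch1, Gli1, Hhip, Gli2 and Gli3 in the 7 p63-KO stromal subclusters, with 95% Poisson intervals and the number of cells. Subclusters 2 and 3 differ in Ptch1 (182 and 48.5 CPM) and have overlapping intervals for Gli2 and Gli3.

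Of 52 further pathway genes in 4 lists, 33 were measured between the epithelia. Called lower in p63-KO were 6 and called higher 1, beside 8.76% and 15% of all measured genes, and their median log2 ratio was -0.19, beside -0.025 over all. Of the genes for other ligands, release and reception, Gpc3, a glypican that competes with Ptch1 for ligand, stood at 429.9 CPM in wild-type and 41.9 CPM in p63-KO cells. Boc, Cdon and Disp1, the first pair co-receptors and the last the protein that releases ligand, stood at 32.5 and 23.5, 71.2 and 45.4, and 25.4 and 23.5 CPM. The other ligand genes were rare, with 9 wild-type and 78 p63-KO UMIs of Ihh and 5 and 6 UMIs of Dhh in epithelial-like cells and 0 in stromal cells. Of 14 measured genes of transduction and inhibition, Evc2, a ciliary partner of Smo, was 3.02-fold lower, and Evc and Gpr161, named here after their values were seen, 8.81-fold and 3.57-fold lower. Sufu, the inhibitor that holds Gli proteins in the cytoplasm, stood at 32.6 and 23.7 CPM, and Btrc, Csnk1a1, Grk2, Gsk3b, Iqce, Prkaca, Spop and Spopl were not called either. None of the 8 cilium genes, Ift88, Ift172, Kif3a, Arl13b, Ift81, Dync2h1, Ift27 and Tulp3, was called. Of the 6 measured genes of the target list, Osr2 was 73.5-fold and Sfrp1 6.19-fold lower and Tbx18 119.1-fold higher (27.8 against 0.233 CPM), while Ccnd1, Ccnd2 and Cdk6 were not called.

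The same lists separated stroma from epithelium in the p63-KO library. Of 41 measured genes, 20 were called higher in stromal cells and 3 (Grk2, Ulk3 and Ccnd1) lower, beside 20.7% and 19.4% of all measured genes, with a median log2 ratio of 0.82 against 0.038 over all. Gas1 stood at 398 CPM in stromal and 1.60 CPM in epithelial-like cells, Boc at 132.5 and 23.5 CPM and Gpc3 at 1093 and 41.9 CPM. Foxf1 and Foxf2, gut mesenchyme factors known to respond to Hedgehog, stood at 112.2 and 0.511 CPM and at 57.7 and 0.318 CPM. Osr1, Osr2, Sfrp1 and Bmp4 were 335.5-fold, 304.2-fold, 175.6-fold and 8.98-fold higher. In the wild-type epithelium 21 of 33 measured genes were called higher in basal-like than in upper cells and 1 (Grk2) lower, beside 21.3% and 11.8% of all measured genes, with a median log2 ratio of 1.08 against 0.36 over all. Hhat, which attaches a fatty acid to the ligand, stood at 25.5 and 6.86 CPM, and Disp1 at 37.7 and 10.998 CPM.

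The genes whose pattern lay nearest to Shh over the 21 epithelial subclusters of both libraries were Ski (Pearson r = 0.943 of log2(CPM + 1)), Slc35d1 (0.936), Mcam (0.933), Bcl11a (0.928) and Fzd2 (0.920), out of 10491 genes. Among the members, r with Shh was 0.795 for Gli1, 0.771 for Gli3, 0.724 for Gli2, 0.519 for Smo, 0.430 for Ptch1 and -0.307 for Hhip. For Gli1 over 20 subclusters and classes of the p63-KO library, the nearest of 11687 genes included Slc27a6 (0.964), Grik1 (0.954), Vstm4 (0.947) and Rgs5 (0.942). Gli2 (0.892), Gli3 (0.834) and Hhip (0.806) lay nearer to Gli1 than Ptch1 (0.488) and Smo (0.483), and Shh had r = -0.670. The points share their libraries and differ in depth, so these values are descriptions.

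On build mm10 with the GENCODE M21 annotation, Shh lies on chromosome 5 (28456815 to 28467256), Ptch1 on 13 (63508328 to 63573598), Smo on 6 (29735503 to 29761365), Gli1 on 10 (127329882 to 127341974), Gli2 on 1 (118834132 to 119053619), Gli3 on 13 (15463235 to 15730026) and Hhip on 8 (79965851 to 80058006). Ptch1, Smo and Gli3 overlap an annotated gene on the same strand (A930032L01Rik, Gm13717 and Gm48343), so reads there could be split between them. The 250 bases before the annotated start were in hand for Ptch1, Smo, Gli2, Gli3 and Hhip (RefSeq, GRCm38.p6). Some RefSeq starts differ from those of GENCODE, and the Ptch1 and Gli3 windows lie inside the GENCODE spans given above. They are shown for Ptch1 and Hhip, targets that were higher in stromal than in pooled epithelial-like cells of the p63-KO library. Both windows lie on the minus strand, at chr13:63565736-63565985 and chr8:80058009-80058258, and CG pairs are in capitals.
Ptch1: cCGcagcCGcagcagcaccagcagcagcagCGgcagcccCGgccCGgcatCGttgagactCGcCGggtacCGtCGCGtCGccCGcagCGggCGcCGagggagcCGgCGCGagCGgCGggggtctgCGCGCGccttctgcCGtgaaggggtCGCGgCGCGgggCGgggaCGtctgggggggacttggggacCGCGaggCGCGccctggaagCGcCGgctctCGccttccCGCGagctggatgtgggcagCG
Hhip: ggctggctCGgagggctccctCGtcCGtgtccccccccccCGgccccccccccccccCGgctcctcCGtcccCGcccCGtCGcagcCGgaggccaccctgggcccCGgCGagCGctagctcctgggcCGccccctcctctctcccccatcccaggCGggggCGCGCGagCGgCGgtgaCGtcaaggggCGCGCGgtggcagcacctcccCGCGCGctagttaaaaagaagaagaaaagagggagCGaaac
Ptch1 held 41 CG pairs and Hhip 28, and the median of all 32851 promoters of this length was 6. The Gli binding motif GACCACCCA, sought on both strands, had no match in these 5 windows, exactly or with 1 mismatch. Of all promoters, 0.225% held it exactly and 5.79% within 1 mismatch. This says only that these letters are not in these windows.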

How the data were processed

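Single-cell libraries of esophageal epithelium, 1 per genotype, were used as deposited: whole-number UMI counts per gene and barcode, made by the authors with Cell Ranger 7.1.0 on mm10, per the submitters' processing notes, from a 10x 3′ kit, per the labels. The annotation release, cell calling and intron counting are unstated in the sources at hand. The deposited tables held 6034 wild-type and 2821 p63-KO barcodes. Kept were barcodes of at least 500 genes and 1000 UMIs with at most 10% mitochondrial counts (5787 and 2422). Simulated-neighbour doublet scores removed 268 and 47.

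Log-normalized cells were clustered together, not integrated, in Python 3.11.15 (pandas 2.3.3, scipy 1.17.1, numpy 2.4.6, igraph 0.11.9, leidenalg 0.10.2, scikit-learn 1.9.0) on 2000 variable genes, 30 components and 20 neighbours at resolution 1, with the Hedgehog lists kept out. Epithelial and stromal cells were clustered again per library at 0.6. Clusters took their name from at least 3 listed markers. The naming thresholds were set after the clusters were seen. UMIs were summed per group, scaled to CPM and compared with exact conditional binomial intervals of the ratio, at 95%. Ratios were checked on simulated counts.

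All 7 members were reported in every class and subcluster. Of 4 further pathway lists, counts are given, and genes with at least 20 CPM in a class are named. Members and lists were chosen with earlier results of these data known. Alternatives covered doublets, filters, totals, weighting, minimum, pseudocount, thinning, clustering, Xist- or Y-only cells and gates. The runs without cycling or without p63-KO ciliated-like cells were chosen after seeing the data. Some genes of these lists and of the likeness ranking are not reported here.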

Additional observations from a re-analysis of the deposited data

How the results depend on the processing

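No paired analysis was possible because the labels give no replicate numbers and each genotype has 1 library. The count of members at least 2-fold lower in p63-KO than in wild-type epithelial-like cells was 4 and lay between 2 and 5 over 16 alternatives, with 2 without the cycling subclusters (Shh and Gli3). The count at least 2-fold higher was 0 in all 16. The count at least 2-fold higher in stromal than epithelial-like p63-KO cells was 5 and lay between 3 and 6 over 15 alternatives, with 3 in cells with Y-linked RNA only (24 stromal cells). The basal count was 4 and lay between 3 and 6 over 13 alternatives. No log2 ratio changed sign. Between the epithelia, that of Shh lay between -3.02 and -1.77, that of Gli3 between -3.28 and -2.39 and that of Ptch1 between -1.72 and -0.34. With basal and upper cells split by keratin UMIs in place of clusters, the basal ratios were 1.46 for Shh, 1.70 for Gli2 and 1.54 for Gli3, against 3.53, 3.39 and 4.36. The cause of these shifts was not tested. Depth limits Gli1 and Hhip in epithelium and all 7 genes in the 10 wild-type fibroblast-like cells.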
